A study of Mus musculus with 4 samples.

Results

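Olig1, Olig2, Sox10, Pdgfra, Cspg4, Nkx2-2, Mbp, Mog and Myrf are 9 genes of the oligodendrocyte lineage, chosen by name out of the 21938 protein-coding genes of the GENCODE M21 basic annotation of mm10 (GRCm38). Open chromatin at these genes was read from ATAC-seq, an assay in which Tn5 transposase inserts sequencing adapters where DNA is not covered, in hippocampi dissected at postnatal day 0 (P0), with 50000 nuclei per reaction. There were 2 cKO libraries, of genotype Kdm2bEmx1-delta-CxxC, in which Emx1-Cre deletes the CpG island binding CxxC zinc finger of KDM2B, and 2 Ctrl libraries, labelled Kdm2bfl/+ or Kdm2bfl/fl without saying which genotype went into which library. The libraries are called cKO1, cKO2, Ctrl1 and Ctrl2, after their group and replicate number (written out in the plots), and values for all of them are given in the order Ctrl1, Ctrl2, cKO1, cKO2. Emx1-Cre acts in the dorsal telencephalon, so cells of other origin in the dissected tissue, such as ventrally born precursors, microglia and vessel cells, keep the domain. The sample source is labelled as neural progenitor cells, whereas titles and protocol name hippocampus, which is followed here. The labels do not say whether a library came from 1 animal or from several, so p-values measure only the spread between these libraries.

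Oligodendrocytes arise from precursors that divide, migrate through the brain and then differentiate to wrap axons in myelin. The transcription factors Olig2, Olig1, Sox10 and Nkx2-2 specify and maintain the lineage, the surface proteins encoded by Pdgfra and Cspg4 mark the precursors, and Myrf switches on the genes of myelin, among them Mbp and Mog. In the mouse hippocampus most myelin forms after birth, so at P0 the lineage consists largely of precursors, which are a minority of the tissue. The promoters of many lineage regulators lie in CpG islands (CGIs), stretches rich in CG dinucleotides, to which the CxxC domain of KDM2B binds.

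Each library gave 1 list of peaks, called by MACS2 without pooling. The number of peaks was 46389, 7037, 21404 and 44535. Ctrl2 stood apart from the rest, with 60.6% of its peaks in repeat-masked sequence against 5.37 to 14.7% in the other lists, and with a promoter peak at 8.27% of protein-coding genes against 40.3 to 58.0%. Its mean depth over the genome, 3.46 fragments, was the highest of the libraries (1.62, 2.07 and 1.81 in Ctrl1, cKO1 and cKO2). The median peak rested on 18 to 20 fragments at its summit, and no peak rested on fewer than 7. Scaled depth, used below, gives the fragments at a summit as a multiple of the average depth over the whole genome of that library, and the weakest listed peaks had scaled depths of 3.46 to 4.43. The lists hold no value for DNA outside peaks, so a gene without a peak is below the calling limit and not shown to be closed.

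The sequences on which the results below turn are given first, read from the GRCm38.p6 reference genome, 5′ to 3′, with every CG dinucleotide in capitals. The promoters of Olig2 and Sox10, which had no peak in any list, and of Mog, which has no island, are the 250 bases before the most upstream TSS (transcription start site), at chr16:91225207-91225456 (plus strand), chr15:79165241-79165490 (minus strand) and chr17:37023399-37023648 (minus strand):
Olig2 promoter: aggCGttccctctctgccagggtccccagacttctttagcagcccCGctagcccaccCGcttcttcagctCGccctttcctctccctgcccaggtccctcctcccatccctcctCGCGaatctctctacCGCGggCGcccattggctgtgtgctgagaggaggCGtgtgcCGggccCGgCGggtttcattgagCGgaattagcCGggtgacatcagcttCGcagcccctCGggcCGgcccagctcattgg
Sox10 promoter: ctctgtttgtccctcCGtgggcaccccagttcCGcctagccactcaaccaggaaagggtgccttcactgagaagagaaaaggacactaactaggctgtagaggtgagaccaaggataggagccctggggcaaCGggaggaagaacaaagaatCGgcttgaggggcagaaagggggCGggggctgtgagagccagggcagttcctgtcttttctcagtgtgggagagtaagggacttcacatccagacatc
Mog promoter: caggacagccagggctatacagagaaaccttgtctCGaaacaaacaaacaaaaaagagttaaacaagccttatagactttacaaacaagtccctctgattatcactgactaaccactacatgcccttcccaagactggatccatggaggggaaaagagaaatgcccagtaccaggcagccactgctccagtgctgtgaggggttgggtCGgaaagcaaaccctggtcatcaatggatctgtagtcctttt
Extended to 50 bases past the TSS, so 300 bases in all, the Olig2 promoter holds 22 CG dinucleotides, the Sox10 promoter 5 and the Mog promoter 3, and the median over all protein-coding promoters of that length was 13.

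Peaks near the genes but away from their promoters are shown as 300 bases on the plus strand: the region upstream of Olig2 that recurred in 3 lists (chr16:91191817-91192116), the region between Olig2 and Olig1 (chr16:91232286-91232585), the region past the end of Pdgfra (chr5:75199792-75200091) and the strongest region of any of the genes' windows, upstream of Mog (chr17:37028732-37029031):
Olig2 upstream region: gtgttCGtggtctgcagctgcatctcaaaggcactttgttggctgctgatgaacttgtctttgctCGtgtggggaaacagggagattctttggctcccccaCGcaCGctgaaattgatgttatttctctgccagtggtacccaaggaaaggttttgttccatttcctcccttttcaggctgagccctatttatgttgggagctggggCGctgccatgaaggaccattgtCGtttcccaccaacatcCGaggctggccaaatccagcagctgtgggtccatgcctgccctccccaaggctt
Olig2 downstream region: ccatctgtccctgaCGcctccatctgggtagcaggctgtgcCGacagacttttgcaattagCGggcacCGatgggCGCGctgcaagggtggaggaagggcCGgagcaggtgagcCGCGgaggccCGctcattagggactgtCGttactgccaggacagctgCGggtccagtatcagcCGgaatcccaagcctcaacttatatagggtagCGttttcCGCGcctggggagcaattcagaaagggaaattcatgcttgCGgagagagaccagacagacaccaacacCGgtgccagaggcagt
Pdgfra downstream region: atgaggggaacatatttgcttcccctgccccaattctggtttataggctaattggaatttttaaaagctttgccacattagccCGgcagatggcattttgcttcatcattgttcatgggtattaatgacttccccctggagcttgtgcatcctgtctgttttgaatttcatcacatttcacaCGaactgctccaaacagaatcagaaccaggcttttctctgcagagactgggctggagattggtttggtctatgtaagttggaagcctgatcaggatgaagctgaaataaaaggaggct
Mog upstream region: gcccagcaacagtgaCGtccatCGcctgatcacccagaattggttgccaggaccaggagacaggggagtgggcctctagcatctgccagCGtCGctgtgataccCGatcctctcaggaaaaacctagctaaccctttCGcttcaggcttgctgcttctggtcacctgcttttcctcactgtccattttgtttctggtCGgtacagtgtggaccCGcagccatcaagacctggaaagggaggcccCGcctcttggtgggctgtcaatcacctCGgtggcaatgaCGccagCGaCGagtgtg
The Olig2 downstream region carries 18 CG dinucleotides, the Mog upstream region 13 and the Olig2 upstream region 7, above the median of 5 over the peak regions of all lists, and the Pdgfra downstream region carries 2. The letters CAGCTG, an E-box of the kind bound by basic helix-loop-helix factors such as Olig2, were searched on both strands. They occur at 2 places in the Olig2 upstream region and at 1 in the Olig2 downstream region, and 22.8% of all regions of this length hold them. The letters ACAAAG, found in many SOX sites, occur in the Olig2 upstream region and in the Sox10 promoter, beside 22.5% of all regions and 16.7% of all 300-base promoters. AACAAT, also found in SOX sites, and TATAAA, the letters of a TATA box, both occur in the Pdgfra downstream region, beside 12.9% and 11.4% of all regions. A match is a run of letters and not a binding event.

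The first comparison concerned the promoters, defined as 2 kb on either side of a TSS. Few of the 9 genes had a promoter peak in any list: 3 in Ctrl1 (Olig1, Pdgfra and Myrf), 0 in Ctrl2, 0 in cKO1 and 2 in cKO2 (Pdgfra and Mbp). The promoters of Olig2, Sox10, Cspg4, Nkx2-2 and Mog had none in any of the 4 lists. For 8 of the 9 genes a CGI overlaps a promoter, Mog being the exception, and 87.2, 13.5, 63.4 and 84.9% of all CGI genes had a peak at the promoter. Of all 21938 protein-coding genes, 39.8% lacked a promoter peak in every list and 39.9% had one in at least 3 lists, beside 5 (55.6%) and 0 of the 9 genes. Of 12643 CGI genes, 10.6% lacked a promoter peak in every list and 63.1% had one in at least 3 lists, whereas of the 8 CGI genes of the lineage 4 (50%) lacked one in every list and 0 had one in at least 3. Counting the TSSs of all transcripts, Cspg4 gained a promoter peak in Ctrl1 and Nkx2-2 in cKO2, which left 2 of the 8 (25%) without one, beside 9.82% of the CGI genes. The median distance from a TSS to the nearest summit was 5530, 117004, 35985 and 5484 bp for the 9 genes in those lists, and 103, 87242, 206 and 112 bp for all CGI genes. With stricter islands 5 of the 9 genes kept an island (Olig1, Olig2, Sox10, Pdgfra and Nkx2-2). Fewer cells of a type and a weaker signal per cell cannot be told apart in bulk tissue.

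**Figure D1:**
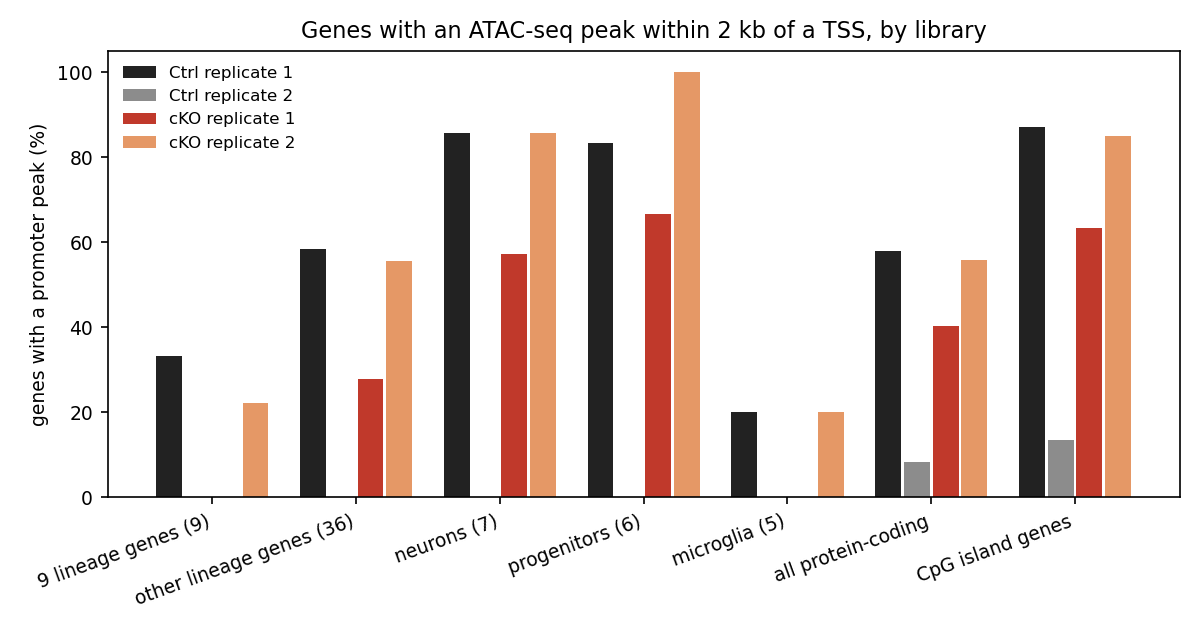
Percentage of genes with at least 1 peak within 2 kb of a TSS, by library (bars), for the 9 lineage genes, 36 other genes of the lineage, marker lists of neurons, progenitors and microglia (number of genes in brackets), all protein-coding genes and CGI genes. The 9 genes stand at 33.3, 0, 0 and 22.2%, below all protein-coding genes in each list.

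Among the transcription factors, Olig1 (chr16:91269772-91271933, plus strand, ENSMUSG00000046160.6) had a promoter peak in Ctrl1 and in no other list. Its summit lay 39 bp past the TSS, in the 5′ end of the transcript, with 13 fragments, a fold enrichment over local background of 4.32 and rank 34922 of 46389 peaks. The promoter of Olig2 (chr16:91225457-91228677, plus strand, ENSMUSG00000039830.9), the factor that directs precursors to the lineage, had no peak although its island spans 2320 bp. The nearest peak to the Olig2 TSS lay at 6929 bp in Ctrl1, 117004 bp in Ctrl2, −33448 bp in cKO1 and −2327 bp in cKO2, with positive distances in the direction of transcription. The last of these, 12 fragments in cKO2 alone, was just outside the 2 kb limit.

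For Sox10 (chr15:79154908-79165240, minus strand, ENSMUSG00000033006.10), which activates myelin genes with Olig2 and Myrf, the nearest summits lay at 23163, 23255 and 23218 bp in Ctrl1, cKO1 and cKO2. They belong to the promoter of its neighbour Polr2f, a subunit of RNA polymerases. For Nkx2-2 (chr2:147177546-147194243, minus strand, ENSMUSG00000027434.11), a homeodomain factor that promotes the differentiation of precursors, the nearest summits were at 7614 bp in Ctrl1 and −7464 bp in cKO2, while Ctrl2 and cKO1 had none within the window. Myrf (chr19:10208272-10240748, minus strand, ENSMUSG00000036098.15) had a promoter peak only in Ctrl1, at −33 bp, with 11 fragments and rank 37703.

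Of the precursor surface genes, Pdgfra (chr5:75152292-75198215, plus strand, ENSMUSG00000029231.15), the receptor for a growth factor that keeps precursors dividing, was the only one of the 9 with a promoter peak in both genotypes. The peaks lay at an internal TSS, that of transcript Pdgfra-202, and none at the most upstream TSS. In Ctrl1 the stronger had its summit 305 bp past that TSS with 16 fragments, and in cKO2 it was at 1265 bp with 15 fragments, beside another at 461 bp with 13. Cspg4 (chr9:56865033-56899870, plus strand, ENSMUSG00000032911.6), which encodes the proteoglycan NG2, had its nearest summit at 3447 bp in both Ctrl1 and cKO2, inside the gene and outside its promoter.

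Of the myelin genes, Mbp (chr18:82475146-82585637, plus strand, ENSMUSG00000041607.17) had a promoter peak only in cKO2, with 12 fragments and a summit at 180 bp from the TSS of Mbp-201. That TSS belongs to the upstream group, which yields the Golli transcripts, while the downstream TSSs, from which the classic myelin basic proteins are made, had no promoter peak in any list. Mog (chr17:37010743-37023398, minus strand, ENSMUSG00000076439.12), a protein of the outer surface of myelin, had none.

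All these promoter peaks were weak within their lists. The promoter percentile, which is the percentage of protein-coding genes that a gene outranked in a list by its best promoter peak (0 without a peak), was 46.1 for both Olig1 and Pdgfra and 44.9 for Myrf in Ctrl1, and 46.5 for Pdgfra and 47.1 for Mbp in cKO2. Since 42.0% of genes in Ctrl1 and 44.1% in cKO2 had no peak at all, these values lie just above the genes without one. The median over the 9 genes was 0 in every list, and over all protein-coding genes it was 49.9, 0, 0 and 50.0.

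The genotypes were compared at the 4 genes with a promoter peak by the difference of mean promoter percentile (cKO minus Ctrl), among 13196 genes tested. The difference was −23.1 for Olig1 (cKO 0 ± 0, Ctrl 23.1 ± 32.6, SD, n = 2 each), 0.18 for Pdgfra (23.2 ± 32.9 and 23.1 ± 32.6), 23.5 for Mbp (23.5 ± 33.3 and 0 ± 0) and −22.5 for Myrf (0 ± 0 and 22.5 ± 31.8). Over the 6 ways to assign the libraries, the exact permutation test (two-sided) gave p = 1 for each, as did the Benjamini-Hochberg adjustment over all genes tested. Each of these differences rested on 1 or 2 libraries: leaving out each library in turn, they ran from −46.1 to 0 for Olig1, −23.1 to 23.4 for Pdgfra, 0 to 47.1 for Mbp and −44.9 to 0 for Myrf. With 2 libraries per group this test cannot go below 0.333, and a p that misses a threshold does not show that the genotypes were alike. The groups were not separated at any of the 4 genes, whereas 20.5% of the genes tested had both cKO libraries above both Ctrl libraries and 2.80% had both below. This depends on scoring a missing peak as 0. With genes without a peak at their middle rank, Olig1 (−20.0) and Myrf (−19.4) were lower in each cKO library than in either Ctrl library (p = 0.333 for each, exact permutation test). The same held for 10.4% of the genes tested, with 20.4% higher. The differences of Mbp and Pdgfra were then 5.06 and −7.82. Olig1 and Myrf had no peak in Ctrl2, cKO1 and cKO2, where every gene without a peak took the same middle rank (45.9, 29.9 and 22.1). The order of those libraries was thus fixed by their lists and shows nothing about either gene. A gene without a peak in any list, such as Olig2, had a difference of −7.46.

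Away from the promoters, the windows from 50 kb before to 50 kb after each gene were examined. They held 36 peaks in Ctrl1, 3 in Ctrl2, 15 in cKO1 and 35 in cKO2, counting the overlapping Olig1 and Olig2 windows once. Per 10000 peaks of the list these are 7.76, 4.26, 7.01 and 7.86. The median window of the 9 genes held 4, 0, 2 and 4 peaks, and that of all protein-coding genes 3, 0, 2 and 3. The median of the 9 genes was at or above that of all genes in each list.

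Merging the 89 peaks gave 43 regions, and 14 of them came from 1 list, 15 from 2, 11 from 3 and 3 from all 4. As shares, 32.6, 34.9, 25.6 and 6.98% compare with 36.8, 30.3, 27.3 and 5.56% over all 58652 regions of the series. The recurring regions were mostly at the promoters of neighbouring genes: 9 of 13 neighbour promoters were held by at least 3 lists, against 0 of 5 regions at a promoter of the lineage genes, 2 of 19 inside a gene and 3 of 6 between genes. The median peak of the windows rested on 20 fragments, and 8 peaks (8.99%) were among the strongest 10% of their lists. None of these 8 lay at a promoter of the 9 genes.

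**Figure D2:**
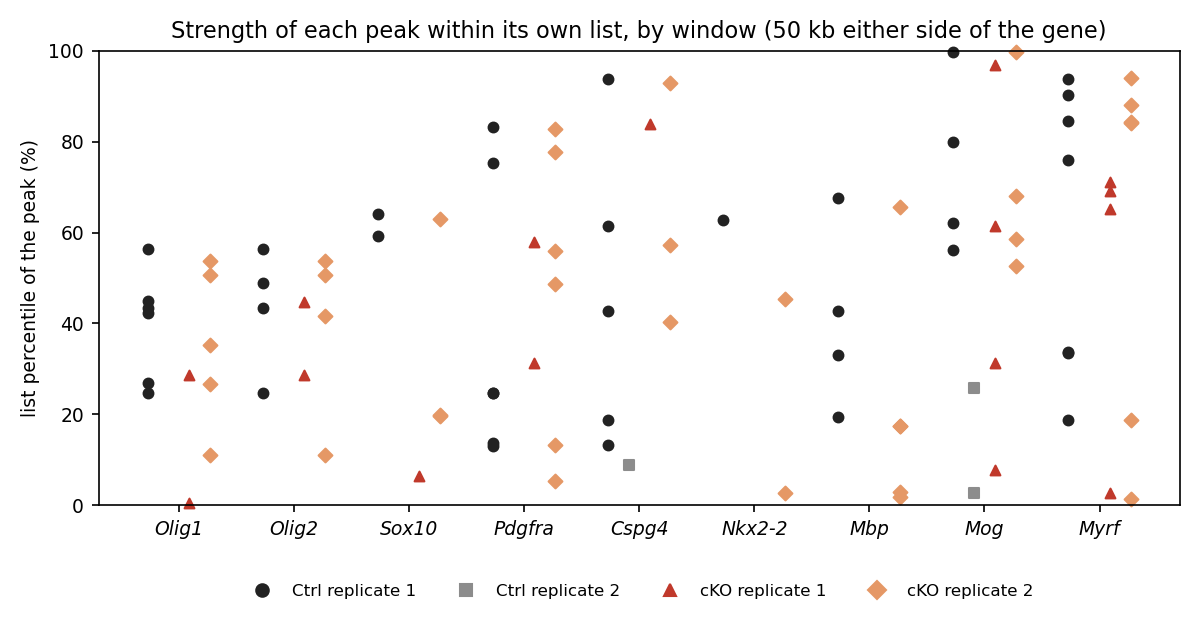
List percentile of every peak in the 50 kb windows of the 9 genes (points, by library), the percentage of peaks of the same list with a weaker p-value; a peak in the overlap of the Olig1 and Olig2 windows is drawn for both. Peaks run from 0.397 to 99.7 with a median of 44.9, the highest being those upstream of Mog.

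At Olig2 and Olig1, which lie side by side on chromosome 16, the Olig1 window held 6, 0, 2 and 5 peaks and the Olig2 window 4, 0, 2 and 4. The density of peaks in the Olig1 window exceeded that around 93.1, 0, 74.6 and 87.4% of protein-coding genes. The region at −33490 bp from the Olig2 TSS (chr16:91191612-91192283, intergenic) rested on 18 fragments in Ctrl1, 16 in cKO1 and 18 in cKO2, at scaled depths of 11.1, 7.71 and 9.96. The region between the genes at 6979 bp (chr16:91232251-91232652) had 16 fragments in Ctrl1 and 21 in cKO2, and is the one rich in CG dinucleotides printed above. Upstream of Olig1 at −6569 bp, a region at the promoter and exon of the unnamed gene model Gm37016 (chr16:91262756-91263443) had 23, 15 and 20 fragments in Ctrl1, cKO1 and cKO2. In the 2 of these regions held by 3 lists, Ctrl1 had the highest scaled depth and cKO1 the lowest.

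Of the 43 regions, 1 was particular to the pair of cKO lists and 0 to the pair of Ctrl lists, beside 0.692% and 0.305% of all regions. It lies 51246 bp past the Olig1 TSS in an intron of the gene model Gm15966 (chr16:91320664-91321107). It was weak in both lists, with 9 fragments and rank 21104 of 21404 in cKO1 and 13 fragments and rank 31409 of 44535 in cKO2.

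**Figure D3:**
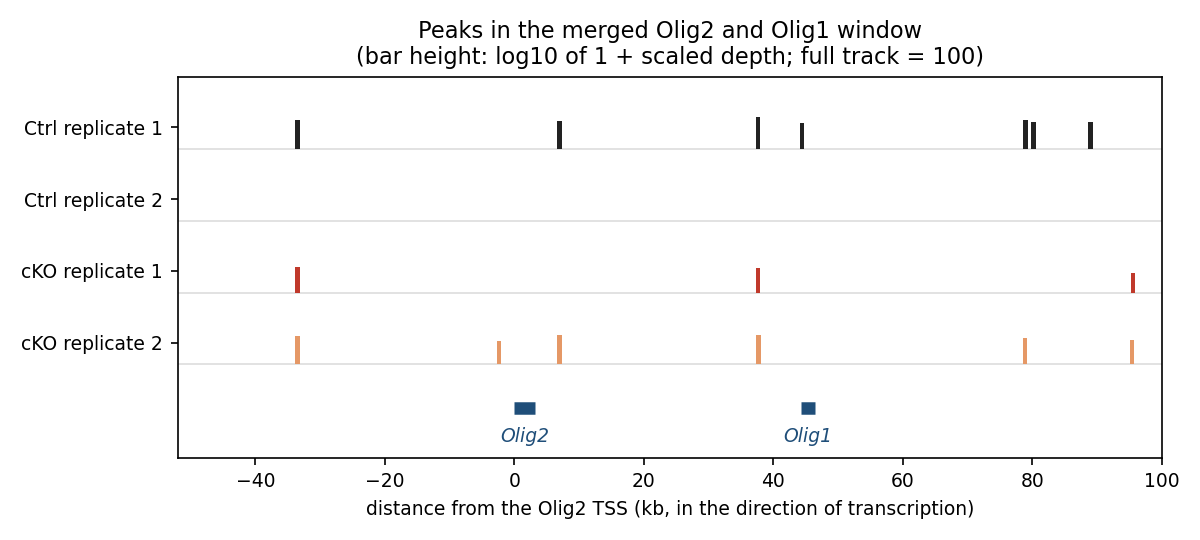
Peaks of the merged Olig2 and Olig1 windows by library, against distance from the Olig2 TSS (kb), with the genes as blue bars; the height of a peak is log10 of 1 plus its scaled depth. The 4 tracks hold 7, 0, 3 and 6 peaks from top to bottom, and neither gene body carries a peak other than the 1 at the start of Olig1 in Ctrl1.

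The Pdgfra window held 6, 0, 2 and 6 peaks. Its strongest region, intergenic past the annotated end of the gene and 44043 bp from the TSS of Pdgfra-202 (chr5:75199479-75200252), had 39, 20 and 41 fragments in Ctrl1, cKO1 and cKO2. It ranked above 83.1, 57.9 and 82.8% of the peaks in those lists. With the basic TSS set, the strongest promoter peak of the gene ranked above 24.8% in Ctrl1 and 13.2% in cKO2. Counting the TSSs of all transcripts, a stronger peak counted in cKO2, with a promoter percentile of 54.6 in place of 46.5. Scaled depths at the region past the gene were 24.0, 9.64 and 22.7, so that cKO2 was close to Ctrl1 and cKO1 was the lowest. An intronic region at 5054 bp had 15 fragments in Ctrl1 and 23 in cKO2, and another at 24064 bp had 22 in cKO2 alone.

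**Figure D4:**
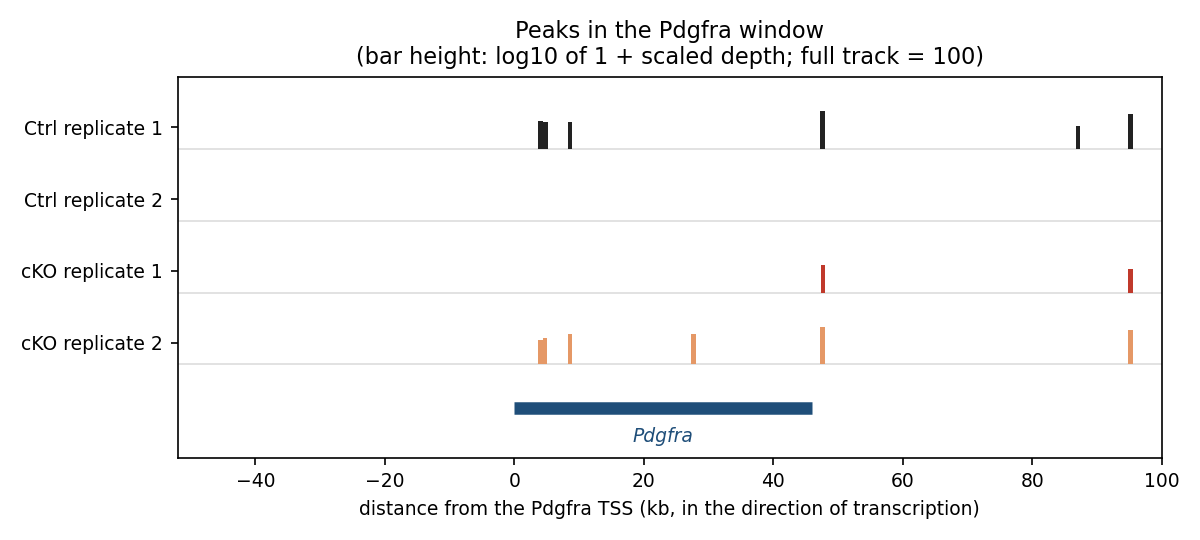
Peaks of the Pdgfra window by library, against distance from the most upstream Pdgfra TSS (kb), with the gene as a blue bar; the height of a peak is log10 of 1 plus its scaled depth. The tallest peak in Ctrl1, cKO1 and cKO2 is the one just past the end of the gene, with scaled depths of 24.0, 9.64 and 22.7, and Ctrl2 has no peak.

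The Cspg4 window held 5, 1, 1 and 3 peaks. Its strongest region is the promoter of Imp3, a neighbour that works in ribosome assembly, held by all 4 lists with 64, 14, 32 and 57 fragments. Within Cspg4 itself an intronic region at 3447 bp (chr9:56868294-56868648) had 18 fragments in Ctrl1 and 20 in cKO2, a scaled depth of 11.1 in both. For Sox10, whose window held 2, 0, 1 and 3 peaks, the strongest region outside promoters was at −28175 bp (chr15:79193088-79193860), in an intron of Gm10863, with 20 fragments in Ctrl1 and 14 in cKO2. The Nkx2-2 window held 1, 0, 0 and 2 peaks, a density above that around 17.6, 0, 0 and 36.6% of protein-coding genes. A region inside the gene at 7614 bp (chr2:147177889-147179023) had 26 fragments in Ctrl1 and 20 in cKO2.

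The Mog window held 4, 2, 4 and 4 peaks, and all 4 lists shared the intergenic region at −5484 bp from the Mog TSS (chr17:37028450-37029230). This was the strongest region near any of the 9 genes, at rank 158 of 46389 in Ctrl1, 4800 of 7037 in Ctrl2, 659 of 21404 in cKO1 and 121 of 44535 in cKO2. It rested on 155, 16, 57 and 144 fragments, and scaled depths were 95.6, 4.62, 27.5 and 79.7. In scaled depth Ctrl1 was the highest and Ctrl2 the lowest, with the cKO libraries in between. The other regions of this window were at the promoters of Zfp57, a zinc finger protein that protects imprints, and Gabbr1, a GABA receptor subunit of neurons, on either side of Mog.

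The Mbp window held 4, 0, 0 and 5 peaks, with intronic regions of Mbp at 33298 bp (15 fragments in Ctrl1, 12 in cKO2) and at −22386 bp from the nearest downstream TSS (11 fragments in Ctrl1 alone). The strongest, in an intron of its neighbour Zfp236, had 23 fragments in Ctrl1 and 27 in cKO2. The Myrf window held 7, 0, 4 and 6 peaks, and 0 summits lay inside Myrf. Besides the peak at its own promoter in Ctrl1, its regions fell at the promoters of Fads1, a fatty acid desaturase, and of Fen1 and Tmem258, and in introns of Fads1 and Dagla. Outside promoters, a region in an intron of Fads1 (chr19:10188353-10188793) had 47, 26 and 51 fragments in Ctrl1, cKO1 and cKO2, and 1 in an intron of Dagla (chr19:10276499-10277814) had 39, 13 and 54, so the former was the stronger in Ctrl1 and cKO1 and the latter in cKO2.

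Across the 14 regions held by Ctrl1 and both cKO lists, the scaled depth of cKO1 was below that of both other libraries in 14, as in 91.6% of the 18435 such regions of the series. That of cKO2 was below Ctrl1 in 12 of 14, and in 62.3% of all. The medians were 24.0 in Ctrl1, 8.68 in cKO1 and 21.3 in cKO2, beside 20.3, 9.16 and 19.4 over all regions. The 2 exceptions, where cKO2 was higher, were a Dagla intron in the Myrf window and the Zfp57 promoter. With 1 Ctrl library this is a description of those libraries and not a comparison of genotypes.

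**Figure D5:**
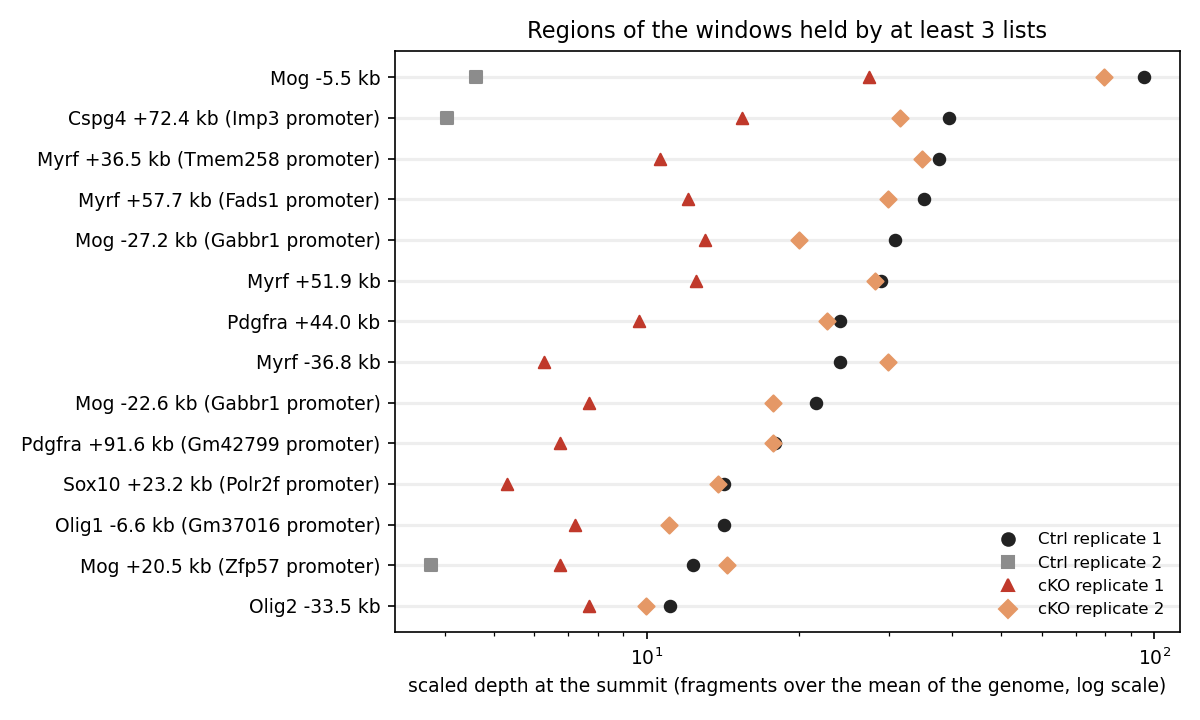
Scaled depth at the summit (log axis) of the 14 regions held by at least 3 lists, named by the lineage gene and the distance from its TSS, with a point per library. cKO1 lies left of Ctrl1 and cKO2 in 14 of 14, and Ctrl2, present in 3, lies furthest left with 3.75 to 4.62.

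The windows were compared between genotypes as peaks per 10000 of the list, among 19808 genes tested. For Olig2 the values were 0.862 in Ctrl1, 0 in Ctrl2, 0.934 in cKO1 and 0.898 in cKO2, a difference of 0.485 (cKO 0.916 ± 0.0256, Ctrl 0.431 ± 0.610, SD, n = 2 each, exact permutation p = 0.333). For Sox10 they were 0.431, 0, 0.467 and 0.674, a difference of 0.355 (exact permutation p = 0.333). For Cspg4 they were 1.08, 1.42, 0.467 and 0.674, a difference of −0.679 (exact permutation p = 0.333). In these 3 genes the groups did not overlap, 2 with cKO higher and 1 with cKO lower, and among all genes tested 24.3% had cKO higher and 4.98% had it lower. The counts of peaks themselves overlapped in all 3. Olig2 had 4 peaks in both Ctrl1 and cKO2, and Sox10 had 2 in Ctrl1 and 1 in cKO1. Cspg4 had 1 in both Ctrl2 and cKO1. The order of those libraries was thus set by the lengths of their lists and shows nothing about the genes. Without Ctrl2 the differences of Olig2, Sox10 and Cspg4 were 0.054, 0.139 and −0.507. The separation of Olig2 was lost with windows of 10 kb (0.117) and 100 kb (0.863, exact permutation p = 1 for both), and with −log10 q or fold of at least 5 (0.336 and 0.404, exact permutation p = 0.667 for both). That of Sox10 and Cspg4 was lost with windows of 10 kb (0 and −0.211), whereas with 100 kb the groups stayed apart in Cspg4 (−1.13, exact permutation p = 0.333, beside 7.14% of all genes tested with cKO lower), and 0 of the 9 had cKO higher, beside 19.8%. With −log10 q of at least 5 the differences of Sox10 and Cspg4 turned sign (−0.144 and 0.336), as they did with a fold of at least 5 (−0.162 and 0.233), and Sox10 also with windows of 100 kb (−0.212). In lists cut to the 7037 strongest peaks the differences of all 3 were 0. Without repeat-masked peaks the difference of Cspg4 was −1.73. The windows of the 9 genes lost no peak by this (36, 3, 15 and 35 as before). Only the list lengths changed, most in Ctrl2, where 60.6% of peaks were repeat-masked.

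With the windows of 50 kb the groups overlapped in the other 6 genes, with differences of 0.382 for Olig1, 0.494 for Pdgfra, 0.117 for Nkx2-2, 0.130 for Mbp, −0.469 for Mog and 0.854 for Myrf (exact permutation p = 0.667 for Pdgfra and Myrf and 1 for the rest). The lowest Benjamini-Hochberg adjusted p over all genes was 1. With −log10 q of at least 5 the groups separated, cKO higher, in Pdgfra (0.960) and Mog (0.998), and with a fold of at least 5 in Pdgfra (0.741) and Myrf (1.19), each with an exact permutation p of 0.333, beside 29.7 and 34.9% of all genes tested under these limits. In each of these separations Ctrl2 was at 0, and at least 1 cKO list kept no more peaks in the window than Ctrl1. The order of those libraries was thus set by list length, as for Mog with 1.17 in Ctrl1 and 1.18 in cKO2. None of the 9 genes had cKO lower under these limits, beside 3.10 and 1.67% of all genes tested. With windows of 10 kb the differences of Olig1, Mbp, Mog and Myrf were 0.130, 0.00897, −0.945 and 0.130. Without Ctrl2 the window differences of Olig1, Pdgfra, Mbp and Mog turned to the other sign (−0.265, −0.153, −0.301 and 0.521), and that of Myrf was 0.0991. Without repeat-masked peaks, where again only the list lengths changed, the difference of Mog was −2.48. In the lists cut to equal size the differences of Mog and Myrf were −0.711 and 2.13 and those of the other 4 were 0. Without cKO2 the differences of Nkx2-2, Mbp and Mog changed sign (−0.108, −0.431 and 0.0166).

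The other genes of the lineage were taken from a list of 36, of which 25 have an island promoter. A promoter peak was present for 21 of them in Ctrl1, 0 in Ctrl2, 10 in cKO1 and 20 in cKO2. These are 58.3, 0, 27.8 and 55.6%, beside 58.0, 8.27, 40.3 and 55.9% of all protein-coding genes. Of the 36, 10 had one in 3 lists and 14 in none, beside 39.9% of all protein-coding genes in at least 3 lists and 39.8% in none. Both cKO libraries were above both Ctrl libraries in 5 of the 22 with a peak and below in 0, where 20.5% and 2.80% of all genes tested were. The 5 included Sox9 (75.1, 0, 83.7 and 80.2), Zfp536 (48.5, 0, 61.9 and 53.5), Lingo1 (59.6, 0, 73.7 and 68.5) and Itpr2 (49.5, 0, 61.2 and 53.6), given as promoter percentiles. Even a weak promoter peak outranks every gene without one, which were 42.0% of genes in Ctrl1, 59.7% in cKO1 and 44.1% in cKO2. In cKO1 Zfp536 and Itpr2 thus stood just above the genes without a peak. All 36 genes were at 0 in Ctrl2. The order of the libraries thus depends in part on how many genes each list covers, and does not show a difference between genotypes.

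Markers of the other cells of the tissue were read in the same way, beside 58.0, 8.27, 40.3 and 55.9% of all protein-coding genes with a promoter peak. Of 7 neuronal genes 6, 0, 4 and 6 had a promoter peak, and of 6 progenitor genes 5, 0, 4 and 6. Interneurons gave 3, 0, 1 and 2 of 5, astrocytes 3, 0, 3 and 3 of 5, microglia 1, 0, 0 and 1 of 5, endothelial cells 2, 0, 2 and 0 of 5, and genes of other tissues 0 of 4 in each list. Pdgfra is also active in fibroblasts, and of 6 pericyte and fibroblast genes 3, 0, 0 and 3 had a promoter peak, present in the same lists as that of Pdgfra, Ctrl1 and cKO2, which alone held 27.1% of all merged regions. These were Rgs5, Kcnj8 and Col1a1, while Pdgfrb, Dcn and Lum were at 0 in every list. The part of these cells in the Pdgfra values was not tested.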

How the data were processed

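ATAC-seq peak lists of 2 cKO and 2 Ctrl P0 hippocampus libraries were used, grouped and numbered by the sample titles. Per the labels and the study's methods, the authors used cutadapt for trimming and Bowtie2 for alignment to mm10, removed blacklisted regions, mitochondrial reads and PCR duplicates (SAMtools, Picard), shifted alignments for the Tn5 offset and ran MACS2 2.2.7.1 separately for every library, without a control library. Trimming to short reads and removing blacklisted regions may thin repeats, which was not measured here. The deposited lists give a score, which serves display and was not read here, a fold enrichment (the authors' ratio of fragment depth to local background at the summit), and −log10 p-values and −log10 q-values from the authors' MACS2 run. Peaks were ranked by −log10 p within a list, and folds were not compared between lists. Depth per library is unknown except as recovered here: fold and p gave whole fragments at each summit for 100% of peaks (tolerance 0.01 in −log10 p, peaks with −log10 p up to 300), and the lowest background found among the peaks of a list stood for the average depth over its genome.

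TSSs came from the GENCODE M21 basic set and sequence from GRCm38.p6 (RefSeq). The table of RefSeq promoters matched 5 of the 9 genes, so promoters were read from the genome. CpG islands were computed from unmasked sequence (length from 200 bp, GC from 50%, ratio of observed to expected CpG from 0.6), and strict islands from 500 bp, 55% and 0.65. Peaks with 50% or more soft-masked bases counted as repeat-masked. Regions were merged wherever peaks of different lists overlapped by at least 1 bp. The library is the unit of replication, and groups were compared by the exact two-sided permutation test with Benjamini-Hochberg adjustment over all genes tested. Methods were tested on simulated data (Python 3.11.15, numpy 2.4.6, pandas 2.3.3, scipy 1.17.1). The text names the 9 genes, in each window the promoter region of the gene, the strongest region outside promoters and any region held by both lists of a genotype alone, neighbours whose promoter has a peak, and other lineage genes whose groups do not overlap, apart from items that are not reported here. The other lineage genes nearest in pattern to those of the 9 genes that had promoter peaks in 3 or more lists were also to be named, but 0 of the 9 had. Examples named beyond that rule (further regions of the windows) were chosen after their values were seen. The 9 genes and all lists were chosen with earlier results of these data known. Alternatives were other promoter widths and TSS sets, windows of 10 and 100 kb, limits on −log10 q and fold, lists of equal size (the 7037 strongest peaks), lists without repeat-masked peaks, other ranks for genes without a peak, leaving out each library, and a replicate block.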

Additional observations from a re-analysis of the deposited data

How the results depend on the processing

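Stricter limits removed the promoter peaks of the 9 genes and of many others: with −log10 q of at least 5, with a fold of at least 5 or in equal-size lists, 0 of the 9 had one in any list, while 16.2, 19.8 and 53.7% of all CGI genes, against 10.6% with all peaks, then had none. With the TSSs of all transcripts the counts were 4, 0, 0 and 3. The difference between genotypes (cKO minus Ctrl) in the number of genes with a promoter peak was −0.5 and ran from −2 to 1 on leaving out each library (above 0 without Ctrl replicate 1 or cKO replicate 1), and that of peaks in the windows was 5.5 and ran from −11 to 22 (below 0 without Ctrl replicate 2 or cKO replicate 2). That difference in peaks fell to 1 in equal-size lists and with windows of 10 kb, to 3 with −log10 q of at least 5 and to 2.5 with a fold of at least 5. The difference in median promoter percentile of the 9 genes was 0, with 0 on leaving out each library. With genes without a peak at their mid-rank it was −7.46, the value of any gene without a peak in any list. The count of regions held by both cKO lists alone minus both Ctrl lists alone was 1, fell to 0 with windows of 10 kb, with either stricter limit and in equal-size lists, and ran from −7 (without Ctrl replicate 2) to 12 (without Ctrl replicate 1). The promoter difference of Pdgfra turned to −0.52 with promoters of 1 kb and −7.82 with mid-ranks, and ran from −23.1 (without cKO replicate 2) to 23.4 on leaving out each library. Window differences changed sign with −log10 q of at least 5 in Olig1 (−0.139), Sox10 (−0.144), Cspg4 (0.336), Mbp (−0.291) and Mog (0.998), with a fold of at least 5 in the same genes (−0.153, −0.162, 0.233, −0.162 and 0.623), and with windows of 100 kb in Sox10 (−0.212) and Mog (0.0164). On leaving out each library they ran from −0.265 to 1.03 in Olig1, −0.153 to 1.14 in Pdgfra, −0.108 to 0.341 in Nkx2-2, −0.431 to 0.692 in Mbp and −1.46 to 0.521 in Mog, and, with no change of sign, from 0.054 to 0.916 in Olig2, 0.139 to 0.570 in Sox10, −0.851 to −0.507 in Cspg4 and 0.0991 (without Ctrl replicate 2) to 1.61 in Myrf. The lowest exact permutation p under any alternative was 0.333, and the cause of these changes was not tested. The replicate block, run for the promoter percentile and window share of each gene, left those differences as they were (for Olig2 a window difference of 0.485), with a smallest possible exact p of 0.5. The same replicate numbers correlated at 0.053 (promoters) and −0.301 (windows), so the numbers were not taken as pairs. With numbers crossed, chosen after seeing the data, 0 genes were called, as with the block and without it. The peaks of the windows rested on 9 to 155 fragments, and the strongest promoter peaks of the 9 genes on 11 to 16.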
